A study of Homo sapiens with 9 samples.

Results

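An intron of 500 bases or shorter was counted as short, from the distance between the upstream exon's end and the downstream exon's start in the deposited retained-intron tables. By this rule 3068 of the 4393 introns in the table of ORF with NC were short, and so were 3072 of the 4382 introns in the table of MT with NC. The tables shared 2973 short introns, and 3167 of the 4554 introns in either table were short. They lay in 1861 genes, of which 1197 held 1 of them. DDX3X, an RNA helicase gene, and RHOT2, a gene of mitochondrial transport, held 10 each, the most of any gene. In the table of ORF with NC, 825 short introns overlapped another short intron, so these rows share sequence and reads.

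HCT-116, a line established from a human colon carcinoma, was the source of every library. Cells of the ORF group carried, stably, a peptide-coding reading frame of the long noncoding RNA LINC00266-1. For the libraries labelled MT, the genotype reads 5'UTR-ORFmut, a stably expressed construct whose start codon was mutated. Cells of the NC group had the blank vector. Each group had 3 libraries of total RNA, and the labels say neither whether a line was 1 clone or a pool nor whether the 3 were separate cultures. P-values therefore measure only the spread between these libraries, which may be technical.

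An intron that is left in a finished RNA is called retained. Such RNAs are often kept in the nucleus or, when the intron carries a stop codon, degraded by nonsense-mediated decay, so that retention can lower the output of a gene without a change in its transcription. Short introns rich in G and C, with weak splice sites, are known to be retained more readily than others in mammalian cells. Several RNA-binding proteins and snoRNA host genes regulate their own RNA in this way.

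The gene tables gave totals of 19460596 to 24370517 reads per library, recovered from their normalized values. LINC00266-1 had 9951, 10229 and 10310 reads in the ORF libraries, 1, 0 and 0 reads in the libraries labelled MT, and 1, 0 and 0 reads in the NC libraries. Expression of the MT construct was thus not detectable in the libraries labelled MT, and every comparison with them rests on the label. The ORF libraries also differed in PKM, a pyruvate kinase gene, which took 4.51% of all reads in ORF, 0.297% in MT and 0.271% in NC. What part this has in the comparisons of ORF was not tested. Of the 8 markers of colon epithelial lines, KRT8 was the highest, at 3291, 3080 and 2853 CPM (reads scaled to the library's total) in ORF, MT and NC, while LGALS4 and VIL1 were near 0 in all groups. PTPRC and CD3E, defining markers of blood cells, had no read in any library. The short introns carried 1384702 to 2092508 reads of both forms per library, with a median of 82.0 to 123.0 reads per intron.

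The retention level is the length-normalised share of the retained form, from 0 (only the spliced form) to 1 (only the retained form), as deposited per library. The spliced form is that of the row's own junction. Where introns share a splice site, as in DDIT3, TRA2A and SNHG12, the level also depends on which other site is used. The overlapping DDIT3 introns of 281 and 267 bases averaged 0.626 and 0.190 in MT, on 35 and 241 spliced-form reads. The deposited tables list the 3 libraries of a group together without names, so the values below are in deposited order and carry no replicate number. Splice sites of the introns the comparisons turn on are printed below from GENCODE 29 transcripts (GRCh38). Capitals mark intron bases, and lower case marks exon bases. Both introns of DDIT3 use 1 donor and differ in their acceptors, while both of TRA2A use 1 acceptor and differ in their donors, which a reader can follow in the letters. XBP1 is shown whole, since its 26 bases, as the deposited coordinates place them, are the shortest intron of the set. They are the only ones with CT and CA at the ends. A CA also stands just before them, so the letters do not fix where the cuts lie.
SNHG12, 324 bases, donor (chr1:28579588-28579911, minus strand): aagGTAAAGTTGA
SNHG12, 324 bases, acceptor: GTGGTGTTTTTTTCTTTTAGatt
RBM3, 147 bases, donor (chrX:48575668-48575814, plus strand): gagGTGGGGCCTC
RBM3, 147 bases, acceptor: ATGACTGCCTTTTGTTCTAGggg
CPNE1, 410 bases, donor (chr20:35630491-35630900, minus strand): ctcGTGAGTACCT
CPNE1, 410 bases, acceptor: ATTTTCATTCTTGTCTCCAGgtc
CIRBP, 292 bases, donor (chr19:1271037-1271328, plus strand): aagGTGAGGCTGC
CIRBP, 292 bases, acceptor: GTCCCGCCCTCTGTCTCCAGtct
DDIT3, 281 and 267 bases, shared donor (chr12:57517425-57517705 and chr12:57517439-57517705, minus strand): cagGTAAACTTAA
DDIT3, 281 bases, acceptor: CTGCAGATGTGCTTTTCCAGact
DDIT3, 267 bases, acceptor: CACTCCCCATTATCCTGCAGatg
TRA2A, 291 bases, donor (chr7:23521841-23522131, minus strand): tagGTTAAGTAAA
TRA2A, 280 bases, donor (chr7:23521841-23522120, minus strand): aatGTATGGTTTA
TRA2A, 291 and 280 bases, shared acceptor: AATACTGTCTTCTTTGTTAGgag
XBP1, 26 bases, whole intron (chr22:28796122-28796147, minus strand): caCTCAGACTACGTGCACCTCTGCAGCAgg

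Most short introns were at low levels, and a minority was near 1. In all 4554 introns of either table the retained form was an exon annotated in GENCODE 29. A level near 1 can therefore also be ordinary exon sequence with a rarely used junction inside it. The levels do not tell this from an intron left in a finished RNA. Over the 2827 short introns with a level in all 9 libraries, the median of the group means was 0.078 in ORF, 0.091 in MT and 0.094 in NC. Per library, 42.4% to 46.6% of these introns were at a level of 0.05 or less in ORF, 37.6% to 44.5% in MT and 37.8% to 42.4% in NC. At the other end, 13.7% to 14.5% were at 0.9 or more in ORF, 15.1% to 15.8% in MT and 14.8% to 16.4% in NC.

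Where the intron lay in the transcript went with its level. The 2606 short introns between coding exons had a median level of 0.053 in ORF, 0.061 in MT and 0.060 in NC. The 164 introns in 5′ UTRs stood at 0.790, 0.811 and 0.825 in the same order, and the 123 introns in 3′ UTRs at 0.848, 0.870 and 0.878. The 219 introns of noncoding transcripts reached 0.775 in ORF, 0.863 in MT and 0.851 in NC. In this class the spliced junction lay only in transcripts without a coding sequence. It includes such transcripts of protein-coding genes, among them RBM3 and PQBP1. A further 55 had no matching spliced junction in GENCODE 29. These medians are over the introns of each place with a level in all 9 libraries.

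**Figure D1:**
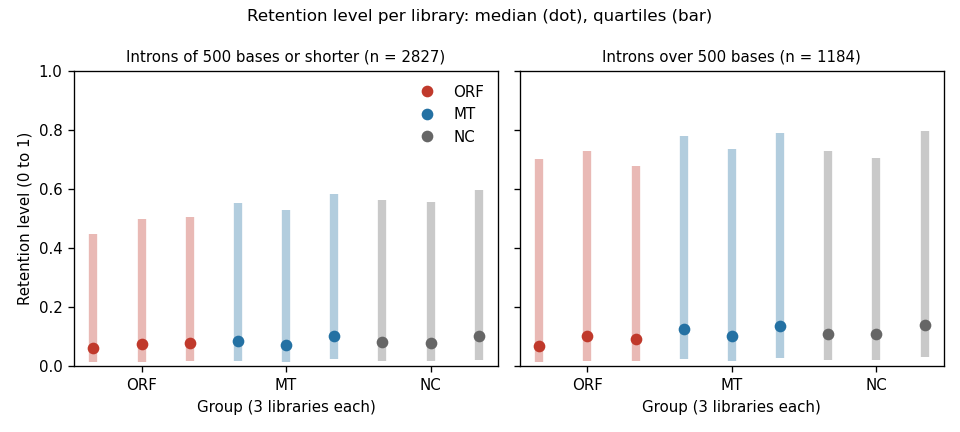
Retention level (0 to 1, vertical axis) in each of the 9 libraries, for introns of 500 bases or shorter (left) and over 500 bases (right). Dots are medians over introns and bars run from the lower to the upper quartile; the medians of the short introns lie between 0.063 and 0.104.

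Short introns were richer in G and C than the introns over 500 bases, with a median GC content of 59.4% against 49.5%. Within the short ones, GC content was lower in longer classes, with medians of 63.1% up to 100 bases and 55.8% from 401 to 500 bases. The level went the other way. In NC its median was 0.060 up to 100 bases, 0.102 from 101 to 200, 0.110 from 201 to 300, 0.146 from 301 to 400 and 0.176 from 401 to 500 bases. The same order held in ORF, from 0.052 in the shortest class to 0.134 in the longest, and in MT, from 0.055 to 0.175. It did not go on past the limit. From 501 to 1000 bases the medians were 0.086 in ORF, 0.122 in MT and 0.117 in NC, at a median GC content of 51.9%. These are descriptions over introns, which share libraries and genes.

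**Figure D2:**
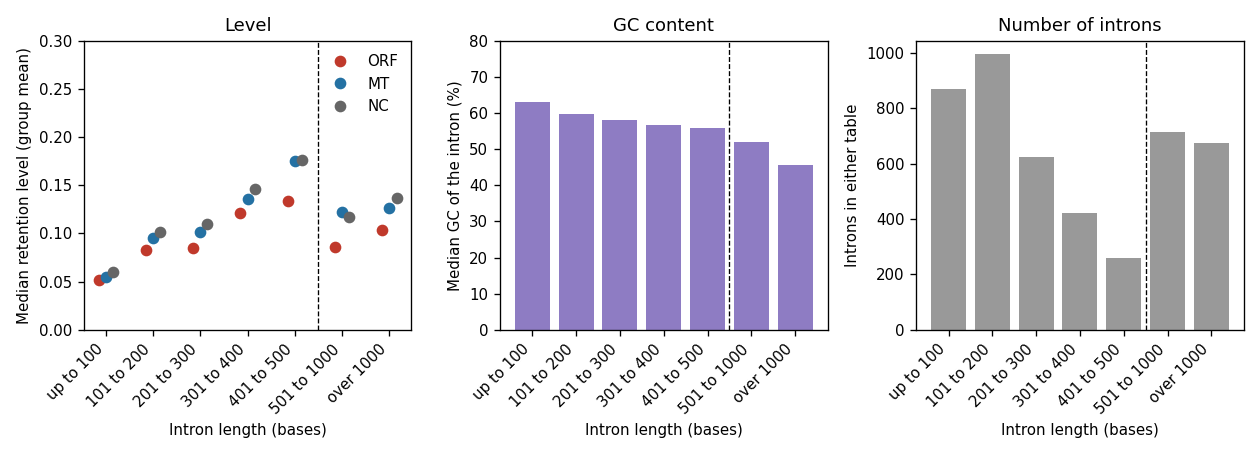
Median retention level of the group means (left), median GC content of the intron in percent (middle) and number of introns (right) by intron length in bases. The dashed line marks 500 bases; the NC median is 0.060 up to 100 bases and 0.176 from 401 to 500 bases.

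GT and AG ended 3111 short introns (98.2%), and GC and AG ended 51 (1.61%), against 98.1% and 1.73% of the introns over 500 bases. The 43 GC-AG introns with a level in all 9 libraries had a median of 0.609 in ORF, 0.709 in MT and 0.673 in NC. The donor GTGAGT began 14.8% of short and 13.7% of longer introns, and GTAAGT began 5.84% and 9.59%; both were read on the transcript strand only. The length was a multiple of 3 in 1040 short introns (32.8%), near the share of 31.9% among longer ones. A small RNA gene lay wholly inside 49 short introns on the same strand, and another annotated gene overlapped 630.

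The highest and the lowest levels in NC were read off among introns with a mean of at least 100 reads per library. TBRG4, a regulator of mitochondrial RNA, kept a 139-base 5′ UTR intron at 0.995, 1.000 and 0.997 in ORF, 0.999, 0.999 and 0.992 in MT, and 1.000, 0.998 and 0.999 in NC. EDC4, MED16, DCXR, KDM3B, METTL22 and SGSM3 were also among the highest 8. METTL22 had no spliced-form read in NC, which allows a level down to 0.981 if 3 such reads are counted over the group, for counting error only. At the low end stood introns of EIF4A1, MYL6, EEF1A1 and AP1M2, which were removed from nearly all reads. The 5 introns with the most reads were in EEF1A1, RPL13A and RPS2, genes of the translation machinery with close pseudogene copies, so their counts are uncertain. The 108-base EEF1A1 intron averaged 0.000667 in ORF and in NC, with 132 retained-form reads in the 3 ORF libraries and 172 in the 3 NC libraries.

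The introns nearest the limit of 500 bases had these values. PLXNB1, a semaphorin receptor gene, held the longest tested intron, at exactly 500 bases. Its levels were 0.080, 1.000 and 0.166 in ORF, 0.287, 0.196 and 0.187 in MT, and 0.147, 0.232 and 0.251 in NC. The ORF level of 1.000 rested on 16 reads. Just inside the limit, the 499-base intron of RAB37 averaged 0.032 in ORF, 0.028 in MT and 0.049 in NC, and the 498-base intron of ADCY3 averaged 0.00267 in ORF, 0.00300 in MT and 0.00133 in NC. Just outside it, SMARCE1 (501 bases) averaged 0.00333 in ORF, 0.008 in MT and 0.006 in NC, and NIT2 (502 bases) 0.067, 0.132 and 0.094.

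The comparison of ORF with NC asks whether expression of the reading frame goes with a change in splicing. Short introns tended to be less retained in ORF. A call by limma needed a level difference of at least 0.05 beside an adjusted p below 0.05, with at least 20 reads per library on average in each group and an overall level between 0.05 and 0.95. Of 1072 short introns tested, 0 were called, as were 0% of the 1567 introns of any length. At an unadjusted p below 0.05 there were 155, or 14.5%, against 15.1% of all tested introns, 138 of them lower in ORF (12.9%, against 13.6%) and 17 higher (1.59%, against 1.47%). The edgeR test on the recovered reads called 22 lower and 1 higher in ORF, where it called 2.43% of all tested introns lower and 0.0638% higher. All 3 ORF libraries were below all 3 NC libraries in 200 short introns (18.7%, against 17.9% of all tested introns), and above them in 39 (3.64%, against 3.25%). The shares of the short introns were near those of all tested introns.

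The mean level was lower in ORF in 735 of the 1072 short introns and higher in 335. The median difference, ORF minus NC, was -0.023, beside -0.026 over all tested introns. It was -0.016 where the mean of both groups lay between 0.05 and 0.2, -0.054 between 0.5 and 0.8, and -0.034 between 0.8 and 0.95. By place, the median difference was -0.020 for coding introns, -0.027 in 5′ UTRs, -0.005 in 3′ UTRs and -0.062 in noncoding transcripts. Of 83 tested introns of noncoding transcripts, 31 (37.3%) had all ORF libraries below all NC libraries, against 146 of 865 coding ones (16.9%). The noncoding class includes introns of protein-coding genes.

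The library medians of 2909 short introns were 0.066, 0.082 and 0.085 in ORF and 0.086, 0.083 and 0.108 in NC. The lowest value was of an ORF and the highest of an NC library, and the groups overlapped between them. The mean of the medians was 0.078 ± 0.010 in ORF and 0.092 ± 0.014 in NC (SD, n = 3 each), a difference of -0.015 with an exact two-sided permutation p of 0.2. It was -0.00883 without the first ORF library, -0.00683 without the third NC library and -0.0307 over introns that passed the read filter. Over those introns the library medians were 0.149, 0.171 and 0.1795 in ORF and 0.1905, 0.181 and 0.220 in NC, without overlap. The smallest p that 3 against 3 libraries allow is 0.1. The median of the short minus that of the longer introns was -0.032, -0.048 and -0.038 in ORF and -0.052, -0.051 and -0.067 in NC, with no overlap and an exact permutation p of 0.1; adjusted over the 5 library tests it was 0.5. The difference of 0.0173 between the groups was 0.00128 with means in place of medians (exact permutation p = 0.8). It was 0.0397 over introns that passed the read and level filters (exact permutation p = 0.1). MALAT1, a long noncoding RNA kept in the nucleus, was at 23.1, 68.7 and 40.9 CPM in ORF and 46.6, 50.7 and 88.2 CPM in NC. NEAT1, another nuclear RNA, was at 75.8, 138.0 and 115.8 CPM in ORF and 107.3, 93.8 and 174.5 CPM in NC. The part of nuclear RNA in the intron levels was not tested.

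**Figure D3:**
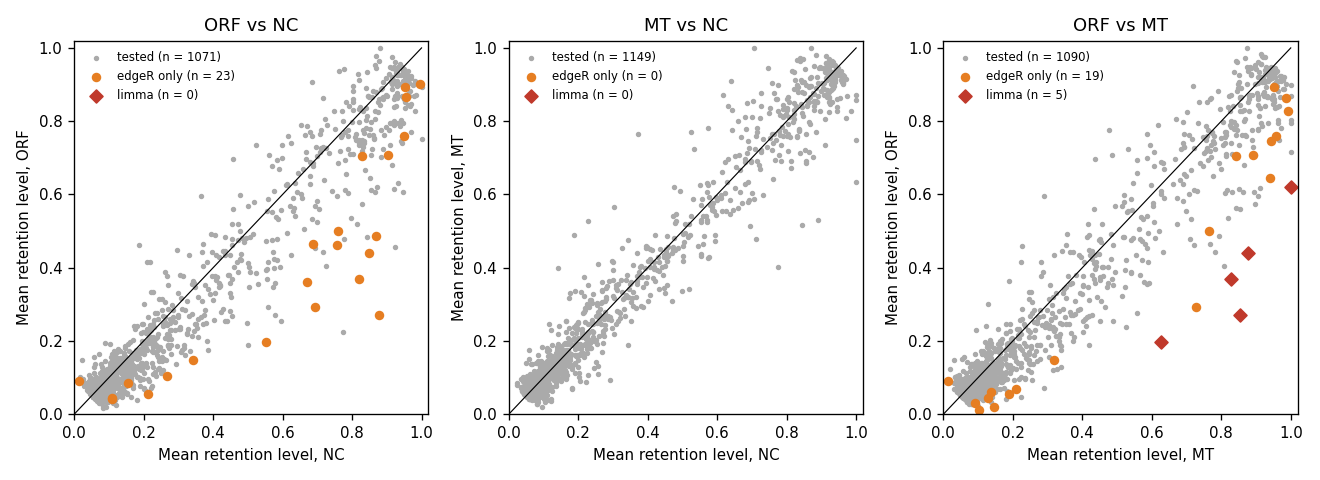
Mean retention level per tested short intron, ORF against NC (left), MT against NC (middle) and ORF against MT (right), with the diagonal; 1 tested intron is not plotted. Diamonds mark the 5 introns called by limma and circles those called by edgeR alone; 22 of the 23 edgeR calls of ORF with NC lie below the diagonal.

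Among the snoRNA host genes, whose introns carry small RNAs that guide the modification of ribosomal RNA, SNHG12 had the smallest p in the set. Its 324-base intron, which holds the snoRNA gene SNORA61, was at 0.328, 0.396 and 0.384 in ORF and 0.799, 0.801 and 0.861 in NC. All ORF libraries lay far below all NC libraries. The log2 odds of retention differed by -2.98 ± 0.33 (SE), with an adjusted p of 0.058 by limma, which misses the threshold, and 5.85e-06 by edgeR. Over the 3 libraries together, retained-form reads came to 23.6 CPM in ORF and 30.7 CPM in NC, and spliced-form reads to 12.8 CPM in ORF and 2.13 CPM in NC. The spliced form was thus 5.99-fold higher in ORF, and the retained form was 0.767 of its NC level. Any reads of SNORA61 itself cannot be told apart from those of the retained form. The 354-base intron of SNHG12 ends at the same acceptor and was at 0.642, 0.805 and 0.679 in ORF and 0.929, 0.883 and 0.899 in NC (edgeR adjusted p = 0.0072, limma adjusted p = 0.19).

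GAS5, a growth-arrest RNA and snoRNA host, had 9 short introns. Its 370-base intron was at 0.394, 0.588 and 0.519 in ORF and 0.792, 0.717 and 0.768 in NC, with no overlap between the groups (edgeR adjusted p = 0.0072, limma adjusted p = 0.19). Its 193-base intron was at 0.027, 0.060 and 0.036 in ORF and 0.108, 0.082 and 0.140 in NC (edgeR adjusted p = 0.013, limma adjusted p = 0.21). Both were lower in all ORF libraries. Reads in GAS5 as a whole came to 236 CPM in ORF and 214 CPM in NC. From the list that also held MALAT1 and NEAT1, 9 introns were tested, all in GAS5 and SNHG1. Of these, 7 had all ORF libraries below all NC libraries, against 18.7% of all tested short introns. Of the same 9, edgeR called 2 lower, against 2.05%. Their median difference was -0.051, beside -0.023 over all tested short introns.

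**Figure D4:**
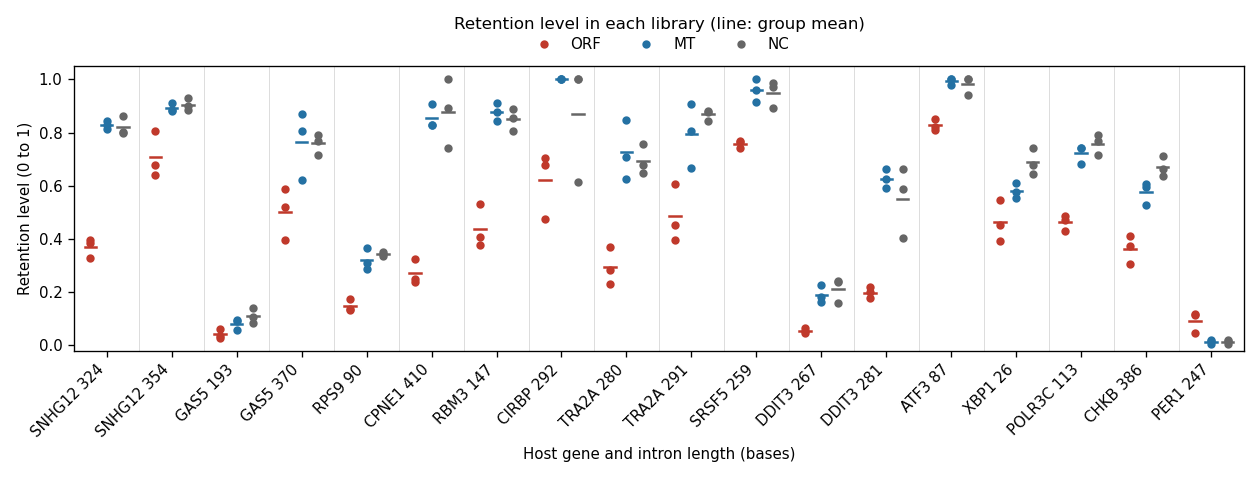
Retention level of 18 short introns (vertical axis, 0 to 1) in every ORF, MT and NC library, with a line at each group mean; the label gives the host gene and the intron length in bases. In the SNHG12 intron of 324 bases the ORF libraries lie between 0.328 and 0.396, and the NC libraries between 0.799 and 0.861.

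Splicing factors that are known to control their own RNA through retained introns and poison exons followed. TRA2A, a splicing activator related to the SR proteins, had overlapping introns of 280 and 291 bases that end at 1 acceptor. The 280-base intron was at 0.282, 0.370 and 0.229 in ORF and 0.647, 0.676 and 0.755 in NC (limma adjusted p = 0.105, edgeR adjusted p = 0.015). The 291-base intron was at 0.454, 0.608 and 0.396 in ORF and 0.843, 0.879 and 0.882 in NC (limma adjusted p = 0.105, edgeR adjusted p = 0.024). The groups stood apart in both, and the retained form was 0.451 of its NC level in the first and 0.466 in the second. SRSF5, an SR protein gene, had a 259-base intron at 0.763, 0.742 and 0.770 in ORF and 0.971, 0.985 and 0.894 in NC (edgeR adjusted p = 0.029, limma adjusted p = 0.19). CLK3, a kinase of SR proteins, had a 277-base intron at a mean of 0.056 ± 0.003 in ORF and 0.068 ± 0.018 in NC (SD, n = 3 each). In the list of SR proteins and their kinases, 5 introns of 4 genes were tested. Of these, limma called 0 and edgeR called 3 lower, of which the TRA2A pair overlaps. All ORF libraries were below all NC libraries in 4, and the median difference was -0.192. Of all tested short introns, edgeR called 2.05% lower and 18.7% had all ORF libraries below all NC libraries, with a median difference of -0.023.

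Among the other splicing regulators, 13 introns of 8 genes were tested, with a median difference of -0.065. Of these, edgeR called 2 lower, and 6 had all ORF libraries below and 1 above all NC libraries. Over all tested short introns these shares were 2.05%, 18.7% and 3.64%. RBM3, a cold-inducible RNA-binding protein, had a 147-base intron at 0.408, 0.377 and 0.532 in ORF and 0.806, 0.853 and 0.890 in NC. The ORF libraries were all lower (limma adjusted p = 0.105, edgeR adjusted p = 0.017), on 82 spliced-form reads in ORF and 13 in NC. TIAL1, an RNA-binding regulator of splicing and translation, had a 329-base intron at 0.027, 0.055 and 0.051 in ORF and 0.095, 0.078 and 0.155 in NC (edgeR adjusted p = 0.041, limma adjusted p = 0.26). Outside that list stood PQBP1, a splicing-associated polyglutamine-binding protein. Its 347-base intron, of a noncoding transcript, had levels near 1, at 0.909, 0.923 and 0.871 in ORF and 1.000, 0.987 and 1.000 in NC. Its spliced form had 27 reads in ORF and 1 in NC (limma adjusted p = 0.105, edgeR adjusted p = 0.013).

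No intron of the hnRNPs or the core spliceosome was called by limma or edgeR. Of 7 hnRNP introns tested, 1 had all ORF libraries below all NC libraries, against 18.7% of all tested short introns. Their median difference was -0.030. HNRNPM, an hnRNP of the spliceosome, had a 117-base intron at 0.255 ± 0.017 in ORF and 0.285 ± 0.024 in NC (SD, n = 3 each). Both tested core spliceosome introns had a lower mean in ORF, with a median difference of -0.057. SNRPE, an Sm protein of the spliceosomal snRNPs, had a 438-base intron at 0.127, 0.262 and 0.311 in ORF and 0.327, 0.264 and 0.312 in NC, with overlap. SF1, the branch point binding protein, had a 432-base intron at 0.891, 0.940 and 0.893 in ORF and 0.966, 0.946 and 0.953 in NC, lower in all ORF libraries but not called (limma adjusted p = 0.31, edgeR adjusted p = 0.13). The minor spliceosome list had 1 tested intron, in CCDC84, at 0.065, 0.175 and 0.150 in ORF and 0.125, 0.097 and 0.258 in NC, where the groups overlapped. Of the genes known for regulated intron retention, 5 introns were tested and edgeR called 1 lower, that of SRSF5. It called 2.05% of all tested short introns lower. MAT2A, the S-adenosylmethionine synthetase whose intron retention responds to methionine, was at 0.061, 0.137 and 0.067 in ORF and 0.121, 0.105 and 0.182 in NC in a 191-base intron, again with overlap. The list of nonsense-mediated decay had 1 tested intron, in RBM8A, at 0.521, 0.765 and 0.398 in ORF and 0.556, 0.710 and 0.845 in NC, and the m6A list had none.

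Stress response genes held 3 tested introns in ATF3 and DDIT3, and all had the 3 ORF libraries below the 3 NC libraries. Of all tested short introns, 18.7% did. DDIT3 encodes CHOP, a transcription factor of the integrated stress response. Its 281-base 5′ UTR intron was at 0.177, 0.199 and 0.218 in ORF and 0.404, 0.663 and 0.588 in NC (limma adjusted p = 0.17, edgeR adjusted p = 0.013). Its 267-base intron was at 0.052, 0.047 and 0.064 in ORF and 0.157, 0.239 and 0.243 in NC (limma adjusted p = 0.105, edgeR adjusted p = 0.0018). The introns overlap each other and, on the opposite strand, the MARS gene; no source used here gives the strand setting of the counting, so reads of MARS cannot be told apart. Spliced-form reads of the 267-base intron were 5.51-fold higher in ORF and retained-form reads 1.18-fold.

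ATF3, an early stress transcription factor, had an 87-base intron at 0.821, 0.809 and 0.852 in ORF and 1.000, 1.000 and 0.943 in NC. It did not pass either test (limma adjusted p = 0.19, edgeR adjusted p = 0.068). Both forms were more abundant in ORF: 693 retained-form and 90 spliced-form reads in the 3 ORF libraries, against 129 and 2 in the 3 NC libraries. The retained form was 5.65-fold higher. XBP1, a transcription factor of the unfolded protein response, is cut by the endoribonuclease IRE1 and not by the spliceosome, so the share printed here is that of the uncut RNA. It was at 0.546, 0.453 and 0.392 in ORF, 0.611, 0.553 and 0.576 in MT, and 0.645, 0.742 and 0.679 in NC. All ORF libraries were below all NC libraries, a difference of -1.36 ± 0.37 (SE) in log2 odds that passed in edgeR (adjusted p = 0.036) and not in limma (adjusted p = 0.20). The uncut form had 6.46 CPM in ORF and 6.73 CPM in NC, and the cut form 6.36 CPM in ORF and 2.57 CPM in NC.

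**Figure D5:**
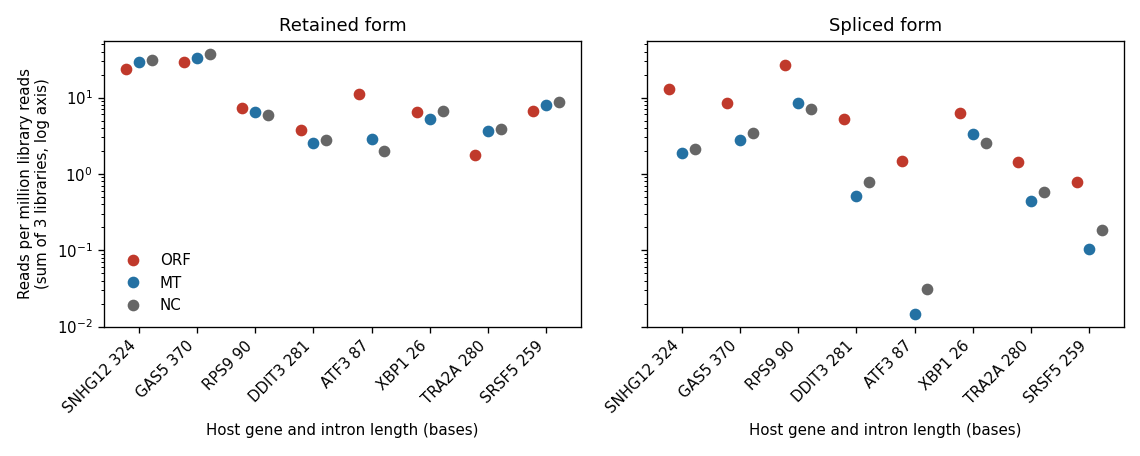
Reads of the retained form (left) and the spliced form (right) in CPM, over the 3 libraries of each group together, on a log axis for 8 short introns. For SNHG12 the retained form is at 23.6 in ORF and 30.7 in NC, and the spliced form at 12.8 in ORF and 2.13 in NC.

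Ribosomal protein genes added 2 edgeR calls among 9 tested introns, both lower in ORF, against 2.05% of all tested short introns called lower. RPS9 had a 90-base intron at 0.131, 0.174 and 0.138 in ORF and 0.344, 0.337 and 0.349 in NC (edgeR adjusted p = 0.0019, limma adjusted p = 0.13). RPL10A had a 95-base intron of a noncoding transcript at 0.730, 0.709 and 0.672 in ORF and 0.863, 0.815 and 0.805 in NC (edgeR adjusted p = 0.029, limma adjusted p = 0.25). RPL17 had a 151-base 5′ UTR intron at a mean of 0.852 ± 0.020 in ORF and 0.875 ± 0.009 in NC (SD, n = 3 each), not called. Of the mitochondrial ribosomal proteins, 4 introns were tested and 0 had groups apart, with a median difference of 0.012. Over all tested short introns, ORF lay apart below NC in 18.7% and above it in 3.64%. MRPL52 averaged 0.288 in ORF and 0.271 in NC in a 112-base intron.

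Metabolic and other genes gave the remaining edgeR calls. CPNE1, a calcium-dependent membrane-binding protein, had the largest level difference of the edgeR calls. The spliced junction of its 410-base intron has no match in GENCODE 29. This intron was at 0.237, 0.324 and 0.249 in ORF and 0.740, 0.892 and 1.000 in NC (edgeR adjusted p = 0.013, limma adjusted p = 0.17). CHKB, a choline kinase whose locus also carries a read-through gene, had a 386-base intron at 0.304, 0.410 and 0.373 in ORF and 0.664, 0.637 and 0.712 in NC (edgeR adjusted p = 0.020, limma adjusted p = 0.12). POLR3C, a subunit of RNA polymerase III, was at 0.430, 0.470 and 0.485 in ORF and 0.789, 0.769 and 0.714 in NC in a 113-base intron (edgeR adjusted p = 0.031, limma adjusted p = 0.11). The groups stood apart in all 3. MCM3AP, MYL6, GPAA1 and MARS, the methionyl-tRNA synthetase, completed the lower calls. MARS was the 1 edgeR call among 5 tested introns of aminoacyl-tRNA synthetases, against 2.05% of all tested short introns called lower. Its 199-base intron was at 0.865, 0.858 and 0.873 in ORF and 0.971, 0.958 and 0.934 in NC (edgeR adjusted p = 0.046, limma adjusted p = 0.19). PER1, a circadian clock gene, was the 1 intron called higher: its 247-base intron was at 0.045, 0.118 and 0.112 in ORF and 0.003, 0.015 and 0.021 in NC (edgeR adjusted p = 0.024, limma adjusted p = 0.19).

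SLC37A4, a glucose-6-phosphate transporter, had the smallest limma p among introns higher in ORF, but it passed neither test (limma adjusted p = 0.105, edgeR adjusted p = 0.23). Its 423-base intron was at 1.000 in every ORF library, with 0 spliced-form reads, and at 0.857, 0.885 and 0.897 in NC, with 6. A count of 0 allows a level down to 0.924 at 3 reads over the group. The fitted difference of such an intron depends on the pseudocount. In the glycolysis list the 1 tested intron, of 308 bases in ENO2, averaged 0.062 in ORF and 0.064 in NC. The NF-kB list also had 1, of 236 bases in NFKBIA, at 0.923, 0.933 and 0.972 in ORF and 0.901, 0.983 and 0.965 in NC.

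Expression of the host genes was compared on the deposited normalized values. Of 1808 host genes tested, limma called 10 (0.553%), against 0.418% of all genes tested. Of these, 9 were higher in ORF, among them ATF3, RELB and DDIT3. The ATF3 gene had normalized values of 2129, 1672 and 2360 in ORF and 313.7, 324.5 and 280.8 in NC, a 6.63-fold difference (limma adjusted p = 4.96e-06). DDIT3 stood at 546.4, 427.1 and 618.4 in ORF and 130.0, 129.6 and 113.4 in NC, a 4.20-fold difference (limma adjusted p = 0.0002). SNHG12 stood at 1618, 1372 and 1749 in ORF and 856.0, 876.6 and 668.7 in NC, a 1.98-fold difference (limma adjusted p = 0.017). RIOK3, a protein kinase gene, rose 2.13-fold and SNHG5, a snoRNA host, 1.80-fold. EBF4, a transcription factor gene, was the 1 that fell. XBP1, TRA2A, RBM3 and GAS5 were not called, with fold differences of 1.47, 1.18, 1.26 and 1.26.

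The libraries labelled MT, set against NC, ask what the construct does without its start codon. Short introns differed little. Of 1150 short introns tested, limma and edgeR called 0, as they did of all 1687 introns (0%). At an unadjusted p below 0.05 there were 50 (4.35%), against 4.86% of all introns: 23 lower in MT (2%, against 2.19%) and 27 higher (2.35%, against 2.67%). All MT libraries were below all NC libraries in 54 (4.70%, against 4.56% of all introns) and above them in 43 (3.74%, against 4.56%). The mean level was lower in MT in 606 and higher in 540, with a median difference of -0.002.

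Library medians over 2927 short introns were 0.094, 0.076 and 0.106 in MT and 0.087, 0.083 and 0.108 in NC, a difference of -0.0007 in the means (exact two-sided permutation p = 0.9). The libraries of the groups were interleaved. The introns with the smallest p passed neither test. PTPN6, a tyrosine phosphatase gene, was at 0.076, 0.094 and 0.072 in MT and 0.020, 0.031 and 0.021 in NC in a 251-base intron (limma adjusted p = 0.45). ADCK5, a mitochondrial kinase-like gene, was at 0.614, 0.566 and 0.521 in MT and 0.293, 0.341 and 0.279 in NC in a 71-base intron (limma adjusted p = 0.46). FXYD3, a regulator of the sodium pump, was lower in MT, at 0.013, 0.033 and 0.013 against 0.076, 0.068 and 0.144 in NC (limma adjusted p = 0.54). In all 3 the groups did not overlap. C1orf159, GALT, MUS81 and SKIV2L were the others, with limma adjusted p from 0.45 to 0.55, and 1 more intron of this rule is not reported here. XBP1 was lower in all MT libraries than in all NC libraries, with means of 0.580 in MT and 0.689 in NC (limma adjusted p = 0.997).

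ORF and MT share no library, and their comparison sets the reading frame against the construct labelled as lacking its start codon. Of 1091 short introns tested, limma called 5, all lower in ORF, against 0.318% of all 1572 introns tested and 0% in the other direction. They were introns of CPNE1, CIRBP, SNHG12, DDIT3 and RBM3. edgeR called 23 lower and 1 higher, against 2.42% and 0.0636% of all introns. At an unadjusted p below 0.05 there were 139 (12.7%), against 13.4%: 120 lower in ORF (11%, against 12% of all introns) and 19 higher (1.74%, against 1.34%). All ORF libraries were below all MT libraries in 167 (15.3%, against 16.3%) and above them in 45 (4.12%, against 3.37%). Leaving out any 1 of the 6 libraries left 0 of the limma calls.

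The CPNE1 intron of 410 bases fell to 0.237, 0.324 and 0.249 in ORF, against 0.906, 0.828 and 0.830 in MT (log2 odds difference -3.70 ± 0.37 SE, limma adjusted p = 0.019). It rested on 98 spliced-form reads in ORF and 6 in MT, of a junction that is not in GENCODE 29. CIRBP, a cold-inducible RNA-binding protein like RBM3, had a 292-base intron at 0.474, 0.679 and 0.706 in ORF and 1.000 in every MT library (limma adjusted p = 0.019). MT had no spliced-form read there, which allows a level down to 0.944 at 3 reads over the group, and 1 NC library, at 0.614, lay among the ORF values. The SNHG12 intron of 324 bases fell to 0.328, 0.396 and 0.384 in ORF, against 0.830, 0.813 and 0.845 in MT (limma adjusted p = 0.019, edgeR adjusted p = 3.06e-07). The DDIT3 intron of 281 bases fell to 0.177, 0.199 and 0.218 in ORF, against 0.591, 0.663 and 0.625 in MT (limma adjusted p = 0.030). The RBM3 intron fell to 0.408, 0.377 and 0.532 in ORF, against 0.845, 0.910 and 0.876 in MT (limma adjusted p = 0.044). No ORF library overlapped an MT library in any of the 5.

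Others with small p were the ATF3 intron, at 0.821, 0.809 and 0.852 in ORF and 1.000, 0.977 and 1.000 in MT (limma adjusted p = 0.052, edgeR adjusted p = 0.0083), and ZNF655, a zinc finger gene, at a mean of 0.803 in ORF and 1.000 in MT. In the list of other splicing regulators, limma called 2 of 13 tested introns lower, those of CIRBP and RBM3, and edgeR 4; 8 had all ORF libraries below all MT libraries. Of the 3 stress response introns, limma called 1 lower and edgeR 3. Of all short introns tested in ORF with MT, limma called 0.458% and edgeR 2.11% lower. All ORF libraries were below all MT libraries in 15.3% of them. RIOK3 had a 92-base intron at 0.035, 0.008 and 0.019 in ORF and 0.190, 0.130 and 0.119 in MT (edgeR adjusted p = 0.017, limma adjusted p = 0.096), on 9 retained-form reads in ORF. Library medians over 2836 short introns were 0.063, 0.078 and 0.081 in ORF and 0.088, 0.072 and 0.103 in MT, with overlap (exact two-sided permutation p = 0.3). In the XBP1 intron the mean was 0.464 in ORF and 0.580 in MT, not called (edgeR adjusted p = 0.38).

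The authors' deposited table for ORF with NC gave an FDR below 0.05 to 328 short introns, 258 lower and 70 higher in ORF, which is 8.41% and 2.28% of the short introns against 8.76% and 2.39% of the whole table. Of these 328 in the authors' deposited table, 126 had under 20 reads per library on average, 181 could be tested here and edgeR called 20 of them. The authors' deposited table for MT with NC gave 91 lower and 92 higher, or 2.96% and 2.99%, against 2.92% and 3.17% of that whole table. For XBP1 the authors' deposited table for ORF with NC listed an FDR of 6.17e-10, and that for MT with NC 4.76e-20. The 2382 short introns with a p of 1 in the authors' deposited table for ORF with NC were most of its short rows.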

How the data were processed

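HCT-116 RNA from 9 samples was sequenced. The submitters' processing notes name GRCh38 and hg38; no source used here gives the aligner, the splicing caller or the strand setting. The deposited splicing tables hold read counts of the retained and the spliced form (their separators partly lost), effective lengths, levels as a fraction from 0 to 1, a difference of mean levels (a signed score by the authors), and the authors' p-value and FDR from an unnamed test. The deposited gene tables hold a normalized signal per library, with the authors' log2 fold changes and p-values; 100% of the per-library values lay within 0.1 of whole reads after division by the value of 1 read.

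Intron reads were recovered as the only split that gave the deposited levels within 0.001, or by a 3-digit rule that every row with 1 matching split met; 56 to 73 short introns per group and table were left out. Retention was tested as log2 odds from these reads (pseudocount 0.5, scaled by effective lengths) with limma 3.58.1 in R 4.3.3, on all introns that passed the filter, with Benjamini-Hochberg adjustment; edgeR 4.0.16 was an alternative. Genes were tested with limma on log2(value + 1). Library medians were tested by exact permutation in scipy 1.17.1. The intron test was checked on simulated data. Named introns were those called, or the 8 with the smallest p where fewer than 12 were called; the 8 highest and 4 lowest levels; the 5 with most reads; the shortest, the longest and those within 5 bases of the limit; and the 2 with most reads per list. Introns called by edgeR alone were added after their values were seen, and some named introns are not reported here. Members and lists were chosen with earlier results of these data known. Intervals and limits cover counting error only.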

Additional observations from a re-analysis of the deposited data

How the results depend on the processing

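The deposited tables do not name the 3 libraries in a cell, so leaving out a library, and the replicate block, went by its place there. Short introns called in ORF with NC numbered 0 by limma and 1 without the read filter. They numbered 10 at a mean of at least 50 reads per library in each group and 4 on deposited levels. There were 6 with all 9 libraries in the fit and 23 by edgeR. Over all lengths these settings called 1 of 2149, 14 of 1072, 6 of 2160, 8 of 1537 and 39 of 1567 introns, against short ones of 1482, 728, 1482, 1061 and 1072 tested. Leaving out a library gave 0 to 1, with the 1 call without the first NC library. In MT with NC the count was 0 under every alternative run except leaving out a library, which gave 0 to 1, again 1 without the first NC library. In ORF with MT the 5 calls became 3 for introns of 300 bases or shorter. They became 3 at a mean of at least 10 reads per library in each group and 0 without the read filter. There were 3 on deposited levels, 9 with all 9 libraries in the fit and 24 by edgeR. In the same order, introns of any length called numbered 5, 3, 0, 3, 13 and 39. Leaving out any library gave 0 for ORF with MT. Leaving out a library, the difference in library medians ran between -0.01933 and -0.006833 for ORF minus NC and between -0.02142 and -0.005917 for ORF minus MT. That of MT minus NC ran between -0.007667 and 0.007333, positive without the second MT library (0.007333) or the third NC library (0.007). The difference in short minus long medians of MT minus NC was 0.001167 over introns that passed the read and level filters, against -0.0003. Host genes called in ORF with NC numbered 10, against 16 by edgeR with DESeq2 size factors and 15 by edgeR on recovered reads, which called 147 of 24662 genes. The cause of these shifts was not tested. Of the values of named introns under alternatives, 682 stayed on the same side of the threshold, most of them not called, 66 passed it only under the alternative, 46 missed it only under the alternative and 0 changed direction.

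With the replicate block, short introns called numbered 0 in each of the 3 comparisons; 21 host genes were called in ORF with NC, where 1.22% of all genes were, and 1 host gene was called in MT with NC, where 0.138% of all genes were. The r of same-numbered libraries' deviations in gene expression was 0.056, -0.082 and 0.048 for ORF with NC and -0.0098, 0.084 and 0.104 for MT with NC, over 0.1 in 1 pair only, so they were taken to share only a number. Few reads limit the precision: many introns had fewer than 20 reads per library and were not tested.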
